A study of Homo sapiens with 9 samples.

Results

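The genes described here are 10 angiogenic growth factors and neuropilins in SW480, an established human line from a colorectal cancer: the VEGF family ligand genes VEGFA, VEGFB, VEGFC and PGF, the PDGF ligand genes PDGFA and PDGFB, the vasoactive peptide genes ADM and APLN, and the neuropilin genes NRP1 and NRP2. They were chosen by symbol, through the Ensembl identifiers of the expression table, and all 10 were found among its 41041 genes. Of these 10, 8 had a mean FPKM of at least 1 over all libraries and were tested, as were 12662 genes of the whole table. VEGFC and PGF lay below that level and were not tested.

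Poly(A) RNA was sequenced from cells kept at 1% oxygen for 48 h, in 3 groups of 3 biological replicates: hypoxic cells without compound (control), hypoxic cells given 25 µM sulforaphane (SFN), and hypoxic cells given SFN together with 5-fluorouracil (SFN+5-FU). Sulforaphane is an isothiocyanate from cruciferous vegetables and 5-fluorouracil a pyrimidine analogue used in chemotherapy. The sources used here give neither the SFN dose of the combined group nor the 5-FU dose. All 3 groups were hypoxic and came from a single cell line, and the data hold neither normoxic cells nor cells on 5-FU alone, so neither the effect of hypoxia nor that of 5-FU by itself can be read from them. Levels are in FPKM, a fragment number corrected for transcript length and for the size of the library, so those of different genes can be set side by side. Totals per library ranged from 259184 to 272235 FPKM, and the depth behind them is unknown.

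The library labelled SFN replicate 2 stood apart from its group. Across the tested genes, on log2(FPKM + 1), it correlated with every SFN+5-FU library at a Pearson r of 0.993, but with SFN replicates 1 and 3 at 0.963 and 0.968. The SFN+5-FU libraries correlated with each other at 0.993 as well, and SFN replicates 1 and 3 with each other at 0.990. These correlations run across genes, which are not independent replicates. Whether its label is right cannot be told from the labels or the values, and every SFN mean and every comparison with SFN includes it under that label. It is kept in its labelled group, and the test results of the SFN group for the members, and for most named genes of the other lists, are also given without it. Epithelial markers fixed for a colorectal line were present, with 7 of 9 at a mean FPKM of at least 1, a summed level of 1710 to 2600 FPKM over the libraries, and the keratin gene KRT18 highest, at a mean of 774 FPKM. Of the markers of other cell types, the endothelial cadherin gene CDH5 and the leukocyte gene PTPRC were listed at 0 in all 9 libraries. Others were above 0 and differed between libraries, with CD68 at 0.48 to 8.96 FPKM, ROBO4 at 0.93 to 3.15, ACTA2 at 0.91 to 3.18, CD14 at 0.86 to 1.98 and COL1A1 at 0.57 to 1.99. The summed endothelial, fibroblast and mural, and leukocyte lists reached at most 3.74, 4.86 and 10.1 FPKM.

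VEGF ligands bind receptor tyrosine kinases on endothelial cells and drive the growth of blood vessels, while PDGF ligands recruit the mural cells and fibroblasts that surround them. Adrenomedullin (from ADM) and apelin (from APLN) are secreted peptides that act on G protein-coupled receptors of the vessel wall. The neuropilins are transmembrane co-receptors that bind both VEGF ligands and class 3 semaphorins and pass the signal on through VEGF receptors or plexins. In hypoxic tumour cells VEGFA, ADM and APLN are known targets of the hypoxia-inducible factors (HIF), which bind DNA elements holding the core ACGTG or GCGTG.

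The 6 tested ligand genes fell and the 2 neuropilin genes rose when either treatment was compared with control. A gene is said to rise or fall where limma gave an adjusted p below 0.05 over all tested genes, and fold changes are on the log2(FPKM + 1) scale, which understates changes of low genes. With SFN, 6 of the 8 tested members fell (VEGFA, VEGFB, PDGFA, PDGFB, ADM and APLN) and 2 rose (NRP1 and NRP2), where 22.5% of all tested genes fell and 27.5% rose. With SFN+5-FU 6 members were again lower and 2 higher, where 28.0% of all tested genes fell and 38.3% rose. In all, 50.0% of tested genes were called with SFN and 66.2% with SFN+5-FU, so that calls were common. The median log2 fold change of the 8 members was -0.88 with SFN and -0.95 with SFN+5-FU, beside 0.05 and 0.10 over all tested genes. Without SFN replicate 2 the counts with SFN were again 6 lower and 2 higher, with a median of -0.80, while 57.1% of all genes were called. The log2 fold changes with SFN were then -0.93 for VEGFA, -0.44 for VEGFB, -2.41 for PDGFA, -0.67 for PDGFB, -0.99 for ADM, -1.08 for APLN, 2.11 for NRP1 and 0.35 for NRP2. In both comparisons the 3 treated and 3 control libraries did not overlap for any of the 8 tested members, as was the case for 57.4% of all tested genes with SFN and 78.8% with SFN+5-FU. Both comparisons use the same 3 control libraries and are therefore not independent. In bulk RNA, fewer cells of a type and less RNA per cell cannot be told apart.

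**Figure D1:**
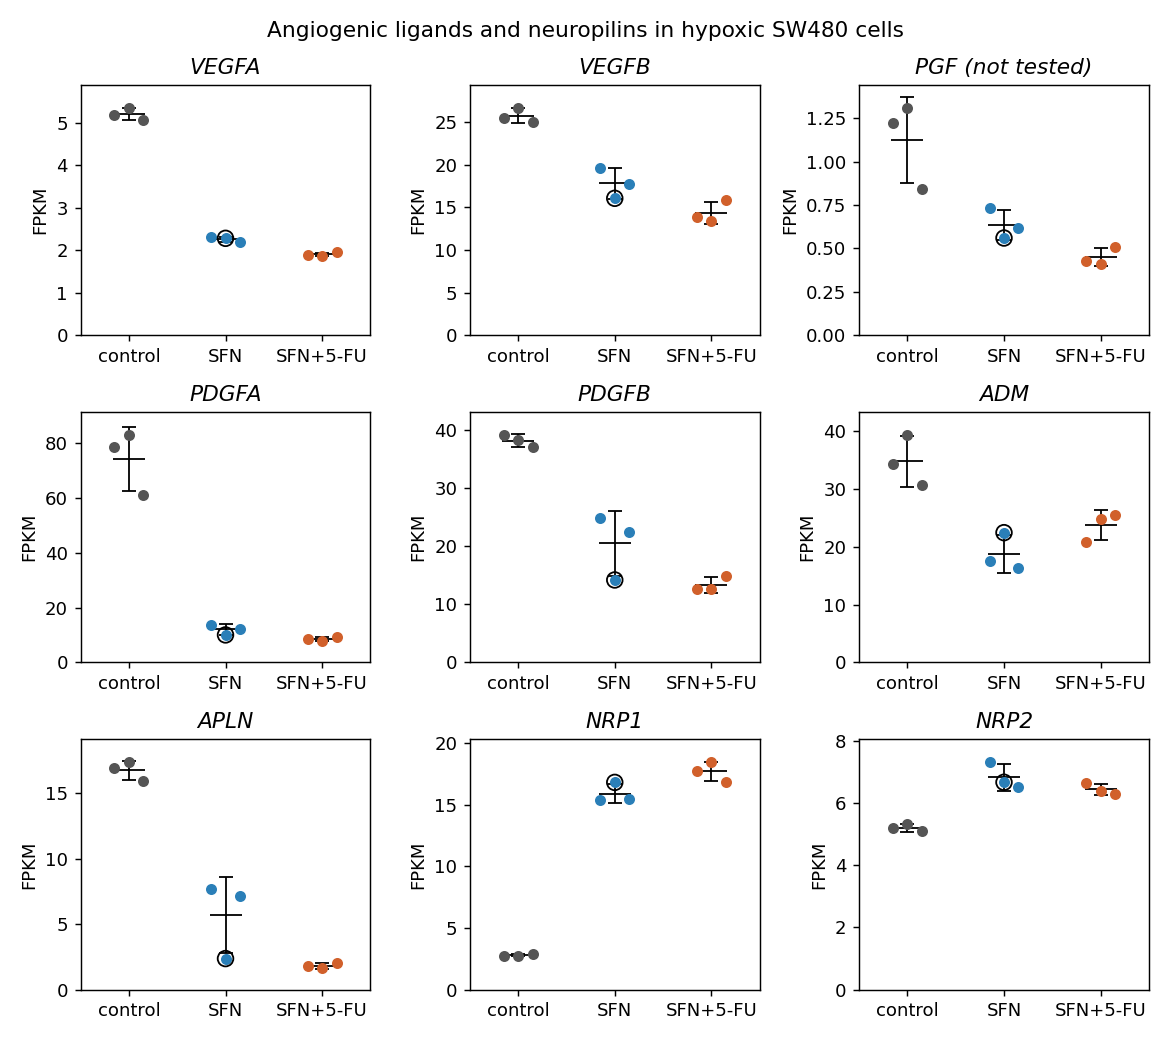
FPKM (vertical axis, starting at 0) of 9 of the 10 genes in each library of the 3 groups; points are libraries, the horizontal dash and whiskers are the mean ± SD (n = 3), and the ringed point is SFN replicate 2. The ligand genes lie highest in control and NRP1 and NRP2 lowest, and the ringed point of APLN lies at 2.37 FPKM, close to the SFN+5-FU libraries.

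VEGFA encodes the main endothelial growth factor of the family. Its level was 5.19, 5.35 and 5.07 FPKM in the control libraries, 2.30, 2.28 and 2.19 FPKM with SFN and 1.88, 1.87 and 1.95 FPKM with SFN+5-FU. The 3 groups were fully separated and the spread within each was small, also with SFN replicate 2, which lay between the other SFN libraries. The log2 fold change against control was -0.93 (SE 0.063, adjusted p = 1.79e-05) with SFN and -1.10 (adjusted p = 6.17e-06) with SFN+5-FU. An antisense gene, AL136131.3, overlaps exons of VEGFA in GENCODE release 29, and the sources used here do not say whether reads were counted by strand.

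VEGFB, whose product binds the receptor FLT1 and is known mainly for roles in vessel survival and lipid handling, was the most abundant ligand gene of its family. It stood at 25.53, 26.68 and 25.02 FPKM in control, 19.65, 16.06 and 17.75 FPKM with SFN, and 13.82, 13.43 and 15.82 FPKM with SFN+5-FU. Every treated library was below every control library, and the lowest SFN library, replicate 2, was just above the highest SFN+5-FU library. The fall was 0.51 on the log2 scale with SFN (adjusted p = 0.00133), and the value with SFN+5-FU was -0.80 (adjusted p = 7.48e-05).

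PGF and VEGFC were scarce. PGF, which encodes placental growth factor, a ligand of FLT1, was listed at 1.22, 1.31 and 0.84 FPKM in control, 0.73, 0.56 and 0.62 FPKM with SFN and 0.43, 0.41 and 0.51 FPKM with SFN+5-FU. The groups did not overlap, in the same order as for VEGFB. When the filter on expression was dropped, PGF had a log2 fold change of -0.37 with SFN (adjusted p = 0.0393) and -0.54 with SFN+5-FU (adjusted p = 0.00505). VEGFC, the lymphatic growth factor gene, was between 0.00 and 0.14 FPKM in all 9 libraries, and no order of groups can be read at that level.

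Per unit of length, VEGFA made up a smaller part of the VEGF family transcripts in treated cells. Its share of the summed FPKM of VEGFA, VEGFB, VEGFC and PGF was 16.2%, 16.0% and 16.3% in the control libraries, 10.1%, 12.1% and 10.6% with SFN, and 11.6%, 11.8% and 10.6% with SFN+5-FU. The summed level itself was 32.1 ± 1.17 FPKM in control (mean ± SD, n = 3), 20.8 ± 1.93 FPKM with SFN and 16.8 ± 1.34 FPKM with SFN+5-FU. The shares of both treated groups were below those of control and overlapped each other. These shares are a description and were not tested.

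PDGFA, which encodes the A chain of platelet-derived growth factor, a ligand of PDGFRA on mesenchymal cells, was the most abundant of the 10 genes in control. It was 78.37, 82.80 and 60.81 FPKM in control, 13.80, 10.03 and 12.19 FPKM with SFN and 8.38, 7.76 and 9.26 FPKM with SFN+5-FU. Even the lowest control library was far above the highest treated library. The log2 fold change was -2.53 (SE 0.138, adjusted p = 8.67e-06) with SFN and -2.98 (adjusted p = 2.55e-06) with SFN+5-FU, and in FPKM the control mean was 6.16-fold and 8.74-fold above the treated means. Ranked from the lowest fold change, PDGFA was at place 5 of 12662 with SFN, all 3 SFN libraries included, and place 7 with SFN+5-FU.

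PDGFB, which encodes the B chain that binds both PDGF receptors and draws pericytes to new vessels, fell less. Its values were 39.17, 38.33 and 37.03 FPKM in control, 24.87, 14.20 and 22.52 FPKM with SFN and 12.57, 12.58 and 14.89 FPKM with SFN+5-FU. SFN replicate 2, at 14.20 FPKM, lay inside the range of the SFN+5-FU libraries. The log2 fold change with SFN was -0.90 (SE 0.172, adjusted p = 0.00239), and -0.67 without that library (adjusted p = 0.000154). With SFN+5-FU it was -1.45 (adjusted p = 0.000114).

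Because PDGFA fell further than PDGFB, the make-up of the pair moved. PDGFA was 66.7%, 68.4% and 62.2% of the FPKM summed over both chains in control, 35.7%, 41.4% and 35.1% with SFN and 40.0%, 38.2% and 38.3% with SFN+5-FU. In control PDGFA was the larger part in each library, and in each treated library PDGFB was. The summed level was 112 ± 12.5 FPKM in control, 32.5 ± 7.46 FPKM with SFN and 21.8 ± 2.05 FPKM with SFN+5-FU (mean ± SD, n = 3), again with no test.

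**Figure D2:**
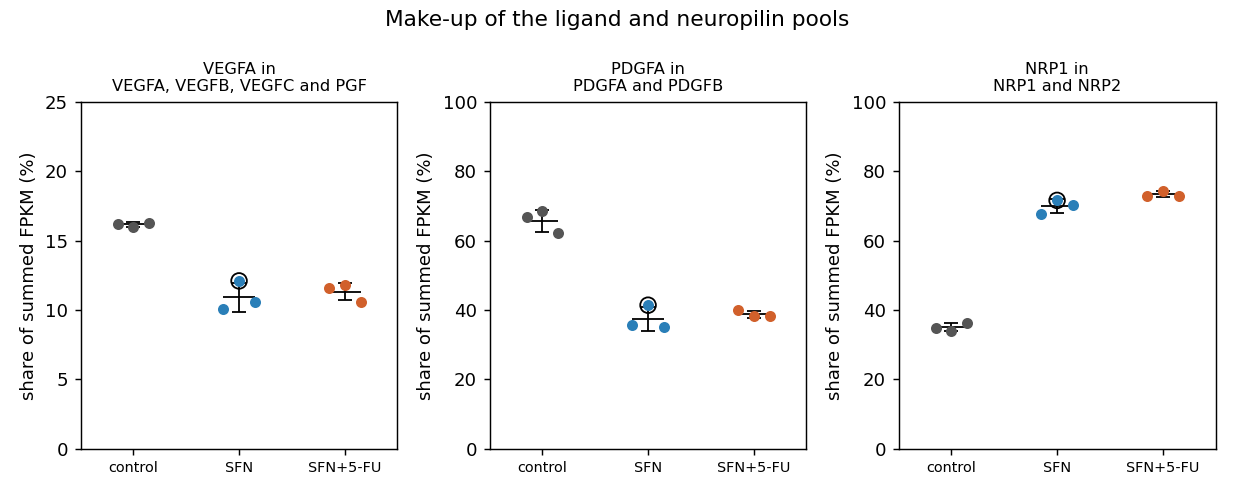
Share (%) of VEGFA in the VEGF family ligands, of PDGFA in the PDGF pair and of NRP1 in the neuropilin pair, each from summed FPKM, by library; the dash and whiskers are the mean ± SD (n = 3) and the ringed point is SFN replicate 2. The first panel ends at 25% and the others at 100%. Treated libraries lie below control for VEGFA and PDGFA and above it for NRP1.

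ADM encodes adrenomedullin, a vasodilator peptide. It was at 34.34, 39.36 and 30.67 FPKM in control, 17.62, 22.45 and 16.29 FPKM with SFN and 20.75, 24.86 and 25.52 FPKM with SFN+5-FU. Every treated library was below every control library, but among the 6 falling genes ADM was the only one whose mean was higher with SFN+5-FU than with SFN. The log2 fold change was -0.86 (adjusted p = 0.000818) with SFN and -0.53 (adjusted p = 0.00659) with SFN+5-FU. Here too SFN replicate 2, at 22.45 FPKM, lay inside the range of the SFN+5-FU libraries, and without it the value with SFN was -0.99.

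APLN encodes apelin, the ligand of the receptor APLNR. It was at 16.92, 17.36 and 15.94 FPKM in control, 7.64, 2.37 and 7.12 FPKM with SFN and 1.79, 1.62 and 2.07 FPKM with SFN+5-FU. SFN replicate 2, at 2.37 FPKM, was far below the other SFN libraries and close to the SFN+5-FU libraries. The log2 fold change was -1.52 (SE 0.299, adjusted p = 0.00279) with SFN, and -1.08 without that library (adjusted p = 1.6e-05). With SFN+5-FU it was -2.65 (adjusted p = 8.81e-05), and the control mean was 9.16-fold above the mean with SFN+5-FU. That is the largest ratio of control to treated FPKM among the 10 genes.

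NRP1 encodes neuropilin-1, the co-receptor of VEGF-A and semaphorin 3A. It was at 2.76, 2.74 and 2.90 FPKM in control, 15.39, 16.80 and 15.48 FPKM with SFN and 17.75, 18.45 and 16.87 FPKM with SFN+5-FU. The control libraries were within a narrow band far below all treated libraries. NRP1 rose by 2.15 on the log2 scale with SFN (SE 0.065, adjusted p = 8.83e-07) and by 2.30 with SFN+5-FU (adjusted p = 4.84e-07), and its mean FPKM was 5.67-fold and 6.32-fold that of control. Ranked from the highest fold change it was at place 7 of 12662 with SFN, again over all 3 SFN libraries, and place 13 with SFN+5-FU. The antisense gene AL121748.2, which overlaps NRP1 exons in GENCODE release 29, was at 0.00 to 0.12 FPKM.

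NRP2 encodes neuropilin-2, a co-receptor of VEGF-C and semaphorin 3F. It rose by much less, from 5.19, 5.31 and 5.08 FPKM in control to 7.31, 6.66 and 6.50 FPKM with SFN and 6.63, 6.37 and 6.29 FPKM with SFN+5-FU. No treated library reached down to the control range, while both treated groups overlapped. The log2 fold change was 0.34 (adjusted p = 0.00274) with SFN and 0.26 (adjusted p = 0.00641) with SFN+5-FU. The antisense gene AC007362.1, which overlaps NRP2 exons, was at 0.00 to 0.07 FPKM.

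The balance within the neuropilin pair changed with these values. NRP1 was 34.7%, 34.0% and 36.3% of the FPKM summed over both genes in control, 67.8%, 71.6% and 70.4% with SFN and 72.8%, 74.3% and 72.8% with SFN+5-FU. The summed level was 7.99 ± 0.0513 FPKM in control, 22.7 ± 0.74 FPKM with SFN and 24.1 ± 0.86 FPKM with SFN+5-FU (mean ± SD, n = 3). NRP2 was the more abundant neuropilin gene in each control library and NRP1 in each treated library.

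**Figure D3:**
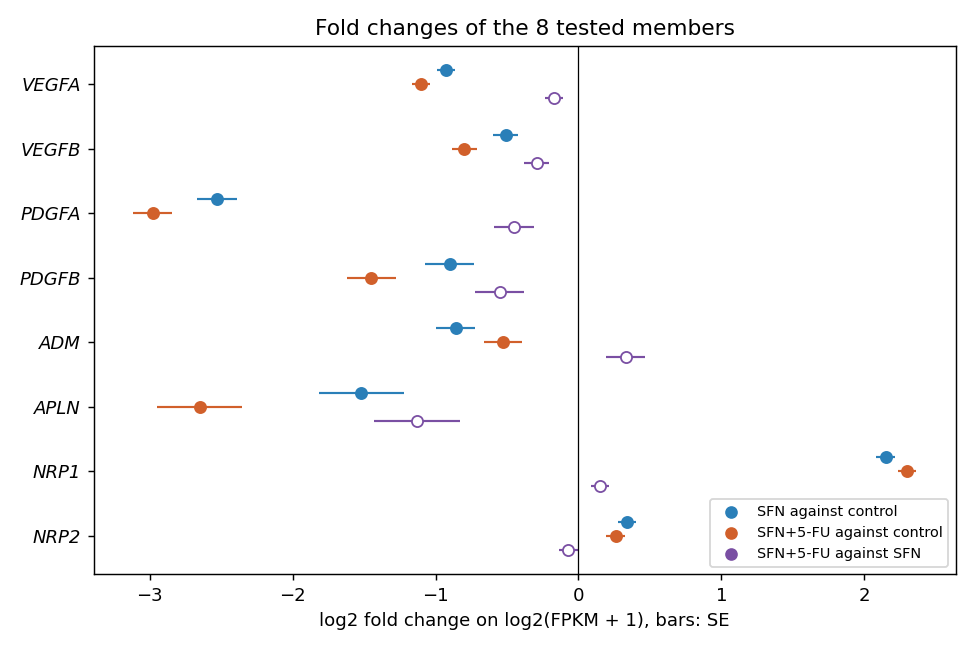
Log2 fold change on log2(FPKM + 1) (horizontal axis) of the 8 tested genes in the 3 comparisons, with bars of 1 SE; filled points passed an adjusted p of 0.05 and open points did not. The 6 ligand genes lie left of 0 in both comparisons with control and NRP1 and NRP2 right of 0, and all points of SFN+5-FU against SFN are open.

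The order of the levels was therefore different in each group. In control, mean FPKM ran from PDGFA (74.0) through PDGFB (38.2), ADM (34.8), VEGFB (25.7), APLN (16.7), VEGFA (5.20), NRP2 (5.19), NRP1 (2.80) and PGF (1.12) to VEGFC (0.0367). Within that order the libraries of PDGFB and ADM overlapped, as did those of VEGFA and NRP2, and the other neighbours did not. With SFN, PDGFB (20.5), ADM (18.8), VEGFB (17.8) and NRP1 (15.9) led, with ranges that overlapped from each to the next. PDGFA (12.0) lay below them without overlap, NRP2 (6.82) and APLN (5.71) overlapped, and VEGFA (2.26) followed. With SFN+5-FU, ADM led at 23.7 FPKM, followed by NRP1 at 17.7 and by VEGFB and PDGFB at 14.4 and 13.3, which overlapped. PDGFA came next at 8.47, then NRP2 at 6.43, and VEGFA and APLN, at 1.90 and 1.83 FPKM, overlapped.

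Promoter sequences from RefSeq (GRCh38.p14) were found for 7 of the 10 genes, in 11 windows of 250 bases before a transcript start; VEGFA, PDGFB and NRP1 were not matched. The HIF core was searched in them because all cells were hypoxic. The core was taken as ACGTG or GCGTG on either strand (CACGT or CACGC on the other), with overlapping matches counted. It was present in 8 of the 11 windows and in 43.2% of all 35116 windows of that length in the table, and 19.4% of all windows held it at 2 or more places. The 3 windows without it belonged to NRP2, to PDGFA (1 of 4) and to PGF (1 of 2). By gene, 6 of the 7 matched held it in at least 1 window. Among these was VEGFC, at 0.00 to 0.14 FPKM in all libraries, with the core 59 bases before the start. The share by gene over all genes was not counted. A gene with several windows has more chances to hold the core, so 43.2%, a share of windows, is no background for the count by gene. The window of APLN (chrX:129654967-129655206, minus strand) held it at 2 places and that of NRP2 (chr2:205682251-205682490, plus strand) at none; both are printed from 250 to 11 bases before the start, with the cores in capitals.
APLN: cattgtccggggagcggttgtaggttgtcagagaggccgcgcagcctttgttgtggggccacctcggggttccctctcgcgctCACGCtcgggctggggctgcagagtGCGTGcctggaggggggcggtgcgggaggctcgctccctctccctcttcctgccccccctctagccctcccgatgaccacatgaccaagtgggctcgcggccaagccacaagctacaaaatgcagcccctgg
NRP2: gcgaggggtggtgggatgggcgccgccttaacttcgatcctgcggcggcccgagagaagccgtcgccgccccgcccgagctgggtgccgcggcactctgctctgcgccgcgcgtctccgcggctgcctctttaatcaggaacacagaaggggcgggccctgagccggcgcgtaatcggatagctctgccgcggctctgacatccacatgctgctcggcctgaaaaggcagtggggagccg
Short stretches around the core follow for 3 other falling genes: ADM (chr11:10304962-10304986, plus strand), VEGFB (chr11:64234513-64234537, plus strand) and one of the 4 starts of PDGFA (chr7:520398-520422, minus strand).
ADM: gcaggagcgcGCGTGgctgaggaaa
VEGFB: ggtggggagcGCGTGtctgggtcac
PDGFA: gggcgggggcGCGTGgcagccgcca
In ADM the core began 101 bases before the start, in VEGFB 61 and in this PDGFA window 186. A match of 5 letters is common and is no evidence of binding, and a window without one says nothing about sites elsewhere.

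The direct comparison of SFN+5-FU with SFN depended on SFN replicate 2. Since the SFN dose of the combined group is unknown, a difference in SFN dose and the presence of 5-FU cannot be told apart in it. With all 9 libraries, limma called none of the 8 members, although 6 of them had an unadjusted p below 0.05, as did 3982 of all 12662 tested genes. The single gene called among 12662, a background of 0.00790%, was ENSG00000260342, which has no symbol in the name table and was named after its values were seen. Groups were apart for 5 of the 8 members, beside 20.9% of all tested genes. APLN had the largest difference, -1.13 (SE 0.299, adjusted p = 0.134). Those of PDGFB, PDGFA, VEGFB and VEGFA were -0.55, -0.45, -0.29 and -0.17, that of NRP2 was -0.07, and those of ADM and NRP1 were 0.33 and 0.15. Their adjusted p values lay between 0.134 and 0.437.

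On the log2(FPKM + 1) scale SFN replicate 2 was nearer to the SFN+5-FU mean than to the mean of SFN replicates 1 and 3 for 6 of the 8 members, with VEGFA and NRP2 the exceptions. Without it, 4 members were lower and 2 higher with SFN+5-FU than with SFN, while 51.1% of all genes were called. The difference of APLN was then -1.57 (adjusted p = 1.01e-05), that of PDGFB -0.79 (adjusted p = 9.5e-05), that of PDGFA -0.56 (adjusted p = 0.00567) and that of VEGFB -0.36 (adjusted p = 0.00418). ADM was higher by 0.46 (adjusted p = 0.00902) and NRP1 by 0.18 (adjusted p = 0.0238), while VEGFA, at -0.16 (adjusted p = 0.0519), and NRP2, at -0.09 (adjusted p = 0.276), did not pass. This comparison rests on 2 SFN libraries. With library weights, which lower the weight of a library that fits its group poorly, 7 of the 8 members passed and 58.7% of all genes were called.

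**Figure D4:**
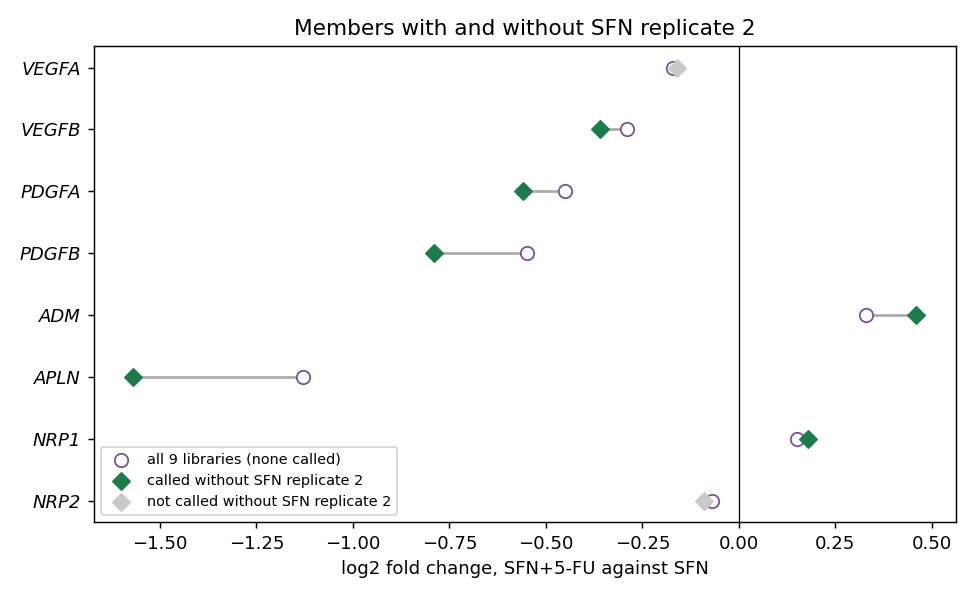
Log2 fold change of SFN+5-FU against SFN (horizontal axis) for the 8 tested genes, from all 9 libraries (open circles) and without SFN replicate 2 (diamonds, green where the adjusted p was below 0.05). APLN moves from -1.13 to -1.57 and PDGFB from -0.55 to -0.79, while VEGFA (-0.17 and -0.16) and NRP2 (-0.07 and -0.09, both grey) move least.

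Receptors of the ligands were mostly at or near 0 FPKM in these cells. Of 11 receptor genes 10 were found, and only RAMP1, a partner of calcitonin-family receptors, reached a mean FPKM of 1. The VEGF receptor genes FLT1 and KDR were at 0.00 to 0.07 FPKM in all 9 libraries, the PDGF receptor genes PDGFRA and PDGFRB at 0.00 to 0.10 FPKM, and CALCRL, the adrenomedullin receptor gene, was listed at 0 throughout. FLT4, the VEGF-C receptor gene, was at 0.01 to 0.26 FPKM and APLNR at 0.01 to 0.21 FPKM. RAMP2 was at 0.00 to 0.23 FPKM. ACKR3 was the highest of the receptor genes not tested, at 0.28 to 0.99 FPKM. RAMP1 fell by 0.28 on the log2 scale with SFN (adjusted p = 0.0183) and by 0.30 with SFN+5-FU (adjusted p = 0.00939). The value with SFN was -0.29 without SFN replicate 2. The first call was lost without control replicate 1 or SFN replicate 3 (highest adjusted p = 0.0695) and the second after a GC and length correction (adjusted p = 0.0509).

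Plexins, class 3 semaphorins and the adaptor GIPC1 are partners of the neuropilins. Of 6 tested partners among 13 listed, 3 fell with SFN and 5 with SFN+5-FU, and none rose, with medians of -0.31 and -0.36. Called shares over all tested genes were 50.0% and 66.2%, so the share with SFN was no higher than that background. PLXND1, a plexin of vascular guidance, fell from 6.70 ± 1.03 FPKM in control to 3.31 ± 0.86 FPKM with SFN and 2.49 ± 0.26 FPKM with SFN+5-FU (mean ± SD, n = 3), by 0.85 and 1.14 on the log2 scale. SEMA3B, a secreted semaphorin, fell from 25.1 ± 0.74 FPKM to 16.5 ± 1.62 and 16.0 ± 0.788 FPKM. PLXNA3 had log2 fold changes of -0.46 and -0.37 (adjusted p = 0.0189 and 0.0362), and after a GC and length correction these were -0.19 and 0.02 (adjusted p = 0.333 and 0.932), so neither call held under it. The first call was also lost without control replicate 1, control replicate 2 or SFN replicate 3 (highest adjusted p = 0.0603), and the second with no filter, with a replicate block (adjusted p = 0.0545) and without any single control or SFN+5-FU library (highest adjusted p = 0.121). GIPC1, which binds the neuropilin tail, had a log2 fold change of 0.01 with SFN (adjusted p = 0.969) and fell by 0.35 with SFN+5-FU (adjusted p = 0.0278). Without SFN replicate 2, 4 partners fell with SFN and 1 rose, where 57.1% of all genes were called. The 1 that rose was GIPC1, at 29.85 and 28.10 FPKM in SFN replicates 1 and 3 and 25.7 FPKM on average in control. PLXND1, SEMA3B and PLXNA3 were then at -0.70, -0.62 and -0.63. SEMA3F was at 3.34, 3.66 and 3.87 FPKM with SFN+5-FU and 1.91, 2.47 and 1.89 FPKM in control. Its log2 fold change was 0.58 (adjusted p = 0.067). In the fit without SFN replicate 2, 5 partners fell with SFN+5-FU and 1, SEMA3F, rose, where 9480 of 12671 genes were called.

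Of 7 other angiogenic ligands tested among 16 listed, 3 rose and 2 fell in each comparison with control, with medians of -0.04 for SFN and 0.67 for SFN+5-FU. With SFN+5-FU this is close to the background of 66.2% of all tested genes called, and with SFN that background was 50.0%. EDN1, which encodes the vasoconstrictor endothelin-1, rose from 0.83, 0.99 and 0.94 FPKM in control to 4.82, 2.84 and 7.01 FPKM with SFN and 2.93, 2.97 and 2.82 FPKM with SFN+5-FU, with log2 fold changes of 1.55 (adjusted p = 0.000418) and 1.03 (adjusted p = 0.00239). The matrix protein gene CCN1 rose by 0.85 and 1.37 and the chemokine gene CXCL8 by 0.83 in both. ANGPTL4, a regulator of lipoprotein lipase, was at 13.0 ± 1.83 FPKM in control and fell to 8.41 ± 1.93 and 6.48 ± 1.28 FPKM. The ribonuclease gene ANG fell by 0.79 and 0.89. It passed the filter through its control libraries, at a mean of 2.37 FPKM beside 0.957 with SFN and 0.817 with SFN+5-FU. ADM2 averaged 0.983 FPKM over the 9 libraries and was not tested. It was at 2.17, 2.68 and 2.13 FPKM in control. The SFN libraries held 0.38, 0.40 and 0.18 FPKM of it and the SFN+5-FU libraries 0.26, 0.39 and 0.26 FPKM. EDN1, with a control mean of 0.92 FPKM, passed the filter through its treated libraries. MDK, which encodes midkine, was at 28.48, 70.61 and 28.82 FPKM with SFN and 66.21, 58.81 and 66.99 FPKM with SFN+5-FU, so that SFN replicate 2 alone in its group was at the level of the combination. Without that library ADM2 also passed the filter, through its control libraries, the only ones in which it was above 1 FPKM. Of 8 tested ligands 3 then rose and 5 fell with SFN, ADM2 and MDK among the latter, where 57.1% of all genes were called. EDN1, CCN1 and CXCL8 were at 1.83, 0.62 and 0.87.

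Of 5 tested inhibitors of angiogenesis among 9 listed, 3 fell and none rose with SFN, and 3 fell and 1 (THBS1) rose with SFN+5-FU, with medians of -0.71 and -0.67, beside 50.0% and 66.2% of all tested genes called. COL18A1, whose product is cleaved to endostatin, fell from 36.1 ± 2.66 FPKM in control to 11.8 ± 2.93 and 7.16 ± 0.278 FPKM, by 1.56 and 2.18 on the log2 scale. VASH1, which encodes vasohibin-1, fell from 3.88 ± 0.193 to 1.09 ± 0.406 and 0.657 ± 0.0651 FPKM. Its mean with SFN+5-FU was below the filter level of 1 FPKM, and its control libraries lifted its mean over all libraries. SERPINF1, which encodes pigment epithelium-derived factor, fell by 0.71 and 0.67. Without SFN replicate 2, 3 inhibitors fell with SFN and none rose, where 57.1% of all genes were called. COL18A1, VASH1 and SERPINF1 were then at -1.37, -1.12 and -0.75.

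Among enzymes that process the ligands, PAM changed most. Of 8 tested among 9 listed, 2 fell with SFN and 3 fell and 1 rose with SFN+5-FU, with medians of -0.04 and -0.23. These shares are below the 50.0% and 66.2% called over all tested genes. PAM, the enzyme that amidates adrenomedullin and other peptides, fell from 44.89, 45.53 and 43.31 FPKM in control to 16.90, 8.49 and 13.75 FPKM with SFN and 7.68, 6.68 and 6.45 FPKM with SFN+5-FU. Its log2 fold changes were -1.75 (adjusted p = 0.00014) and -2.52 (adjusted p = 1.58e-05). FURIN, a convertase that cleaves PDGF and VEGF-C precursors, fell by 0.37 with SFN (adjusted p = 0.0125, and 0.217 after the GC and length correction) and by 0.62 with SFN+5-FU. PLAU, the urokinase gene, rose by 1.98 with SFN+5-FU (adjusted p = 0.00125) and was at 0.91 with SFN (adjusted p = 0.0635), where SFN replicate 2 was at 33.32 FPKM and the other SFN libraries at 9.35 and 12.59 FPKM. Without SFN replicate 2, 3 of the 8 fell and 2 rose with SFN, where 57.1% of all genes were called. PAM and FURIN were then at -1.49 and -0.24.

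**Figure D5:**
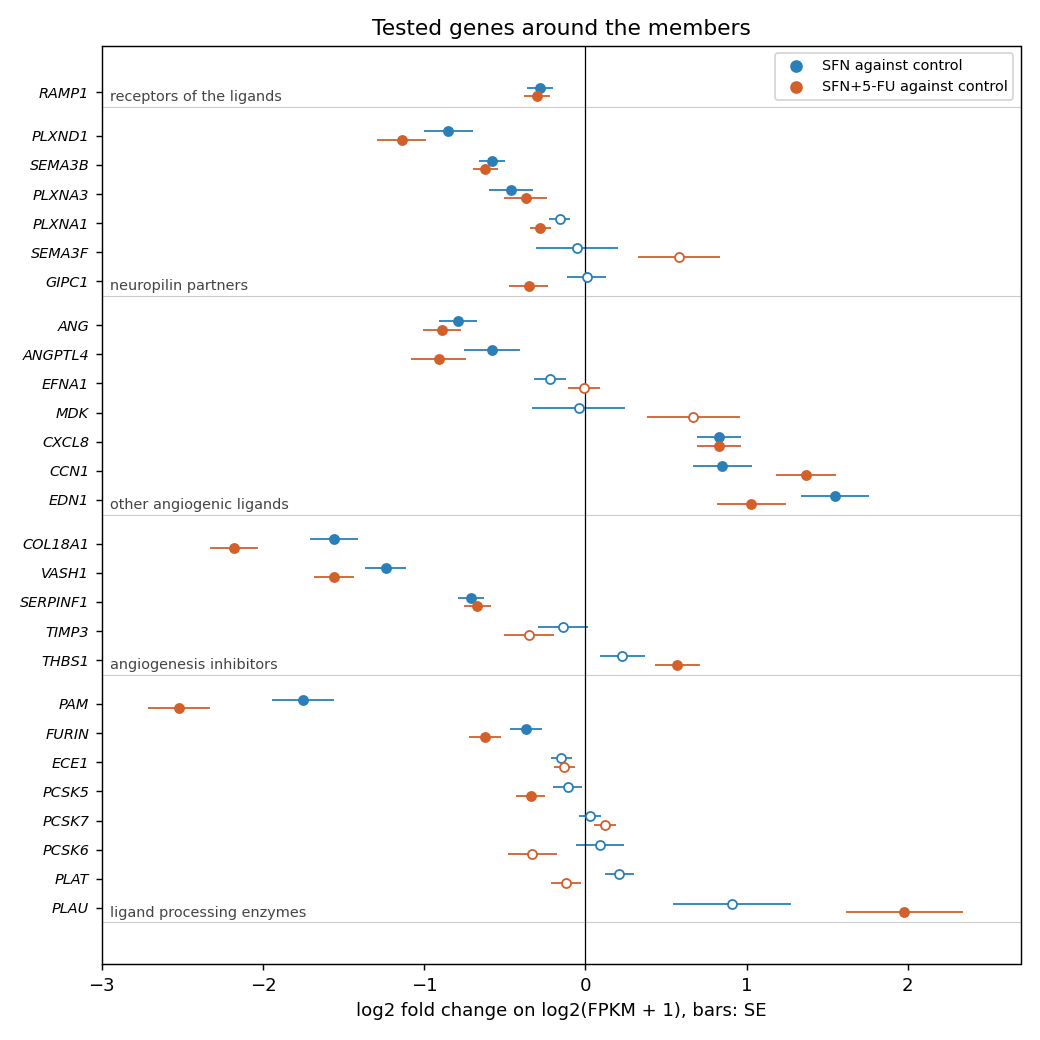
Log2 fold change on log2(FPKM + 1) (horizontal axis, bars of 1 SE) of the tested genes of 5 lists, with SFN and with SFN+5-FU against control; filled points passed an adjusted p of 0.05. COL18A1, VASH1 and PAM lie farthest left, at -1.56, -1.24 and -1.75 with SFN, and EDN1 lies farthest right with SFN at 1.55; open points, such as PLAU with SFN at 0.91, did not pass.

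Among 6812 named genes averaging 5 FPKM or more, the profile over the 9 libraries most like that of VEGFA belonged to PRSS56 and WWC3 (Pearson r on log2(FPKM + 1) of 0.997 for both). For PDGFA these were NR4A1, a nuclear receptor gene, ECH1 and GAD1 (0.999, 0.999 and 0.998), for PDGFB QARS1, ZCCHC24 and BCAN-AS1 (0.999, 0.998 and 0.997) and for VEGFB MXRA7, SSH3 and ADAP1 (0.996, 0.995 and 0.995). The closest to APLN were PPARD, EGLN3, an oxygen-sensing prolyl hydroxylase gene, and IGFBP3 (0.999, 0.998 and 0.998). IGFBP3 was at 384 FPKM in control, 129 FPKM with SFN and 47.4 FPKM with SFN+5-FU. The closest to NRP1 were RRP1, GAL, the galanin gene, and PES1 (0.999, 0.998 and 0.998), and GAL was at 16.5, 44.3 and 46.0 FPKM. ADM had the least close neighbours among the first places, SARS1 at 0.984, LEMD2 at 0.980 and ALDH2 at 0.977, and those of NRP2 were FKBP4, ILKAP and SLC25A39 (0.991, 0.986 and 0.981). The libraries share their groups and the shift of SFN replicate 2, so with many genes called such values are easily reached and describe likeness only.

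Other markers moved beside these genes. Of 7 tested epithelial markers 4 fell and none rose with SFN, and 6 fell with SFN+5-FU. Without SFN replicate 2, 3 fell with SFN. Over all tested genes 50.0% were called with SFN, 66.2% with SFN+5-FU, and 57.1% with SFN without that library. The epithelial list summed to 2550 to 2600 FPKM in control, 1770 to 2380 with SFN and 1710 to 1720 with SFN+5-FU. Most of that sum came from KRT8, KRT18 and KRT19, with control means of 740, 927 and 740 FPKM. EPCAM had means of 129, 133 and 122 FPKM. It was called in neither comparison with control, at log2 fold changes of 0.03 and -0.09. KRT8 and CDX2 were not called with SFN. CDH1, the E-cadherin gene, was at 14.52, 15.36 and 12.65 FPKM in control and at 4.30 to 6.51 FPKM in the 6 treated libraries. The leukocyte list summed to 2.28 to 2.50 FPKM in control, 3.37 to 7.19 with SFN and 6.91 to 10.1 with SFN+5-FU. ROBO4 and ACTA2 led the endothelial and the fibroblast and mural lists, at means of 1.99 and 2.39 FPKM. In the leukocyte list CD68, a lysosomal protein gene, was at 0.48 to 0.61, 2.05 to 5.57 and 5.59 to 8.96 FPKM and PTPRC at 0. The endothelial list summed to 1.90 to 2.00, 2.64 to 3.74 and 2.36 to 3.34 FPKM and the fibroblast and mural list to 3.93 to 4.86, 1.66 to 3.86 and 3.50 to 3.79 FPKM. Their part in the results above was not tested.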

How the data were processed

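The authors deposited 1 FPKM value per gene and library, to 2 decimals. The submitters' processing notes name fastp, StringTie and edgeR without versions or settings. The sources used here do not give the aligner, the genome build or the annotation. Per the labels' protocols, poly(A) RNA was made into dUTP strand-marked libraries and read from both ends. FPKM keeps no depth here, so no count model or counting interval was used.

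Of 41041 identifiers 29784 had a symbol. Identifiers with or without a symbol that averaged 1 FPKM or more across all 9 libraries were kept (12662). Their log2(FPKM + 1) values entered 1 limma fit of 3 contrasts, with trended variance, 6 residual degrees of freedom and 3.2 prior ones. P values are two-sided and adjusted by Benjamini-Hochberg over all tested genes within a contrast. They set a difference between groups against the spread between these libraries. The fit was tested on simulated data. The members, lists and tests were chosen with earlier results of these data known. Named list genes are, per list and contrast, the up to 3 called genes of largest change, or the most abundant one where none was called. ADM2, and ANG, GIPC1, SEMA3F, THBS1 and MDK in the comparisons with control, were named after their values were seen. So were the receptor and marker genes. For each tested member the 3 genes of most similar profile were named, except 1 that is not reported here. Of 96 listed symbols 93 were found. Alternatives varied the pseudocount, filter, scaling, library weights, libraries used and replicate block, and corrected for GC content and length (GENCODE release 29, 98.8% of tested genes). Replicate numbers were not treated as pairs. R 4.3.3, limma 3.58.1, Python 3.11.15 and matplotlib 3.10.9 were used.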

Additional observations from a re-analysis of the deposited data

How the results depend on the processing

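Over the alternatives that could be run for each member, the direction and call of the 8 tested members against control were the same in every case, and the count of called members stayed between 7 and 9 (7 with a mean FPKM filter of 5, which drops VEGFA, and 9 with no filter, which adds PGF). The comparison of SFN+5-FU with SFN was unstable: leaving out single libraries gave 0 to 6 called members and 0 to 6480 called genes, the highest without SFN replicate 2, and library weights gave 7 members and 7432 genes. It had 0 called genes with only the 6 libraries compared. A mean FPKM filter of 5, which tests fewer genes, left 3888 called genes with SFN and 4903 with SFN+5-FU against control, beside 6333 and 8387 as reported. With the replicate block, 8 members and 6038 and 8151 genes were called against control, and 0 members and 0 genes in SFN+5-FU against SFN. Once group means were removed, same-numbered libraries of different groups correlated between -0.143 and 0.107, with 1 of 9 pairs above 0.1, so they were not treated as paired. The sign changed for PLXNA3 with SFN+5-FU against control after the GC and length correction (0.02), and for RAMP1 in SFN+5-FU against SFN (-0.02) with library weights (0.02), with the GC and length correction (0.02) and when single libraries were left out (-0.08 to 0.05, the latter without SFN+5-FU replicate 2); the cause was not tested. With the block the call of PLXNA3 with SFN+5-FU was lost (adjusted p = 0.0545). Among the members and the list genes named by rule, the block changed no other call against control. Other calls were not examined in this way. Depth is unknown, so a level near 0 cannot be given an upper limit.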
